A study of Mus musculus with 32 samples.

Results

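RNA of wild-type (WT) mouse hippocampal neurons was compared between neurites and soma after depolarization with KCl, in 4 RNA-seq libraries, 2 from soma and 2 from neurites. They were chosen by their labels (WT, KCl-treated, RNA-seq), and they are 4 of the 32 libraries of the series and 4 of its 16 RNA-seq libraries. The series profiled RNA and the RNA modification m6A in the soma and in the neurites (axons and dendrites) of WT neurons and of neurons that lacked the m6A methyltransferase Mettl3. The comparison asks which RNAs were more, and which were less, abundant in neurites than in soma after the neurons had been depolarized.

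All 4 libraries came from C57BL/6 WT neurons of newborn mice, with the pups of a litter pooled and each replicate taken from another litter. The neurons grew for 15 days on microporous membranes that neurites, but not cell bodies, can cross. WT neurons also received AAV particles that express Cre and dTomato, at day in vitro (DIV) 7 and at 50000 vg per cell, so the libraries describe virus-transduced neurons. From DIV 14 they were silenced for 16 h with 1 µM TTX, which blocks voltage-gated sodium channels, and 50 µM D-AP5, which blocks NMDA receptors, and then received 55 mM KCl for 2 h. Soma were scraped from the top of the membrane and neurites from the bottom, so the soma fraction can also hold neurites that had not crossed. Untreated WT neurons were silenced in the same way and received no KCl.

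Neurons move part of their mRNA out of the cell body, bound to proteins in granules that motors carry along microtubules. Dendrites hold mRNAs of postsynaptic proteins together with ribosomes and can make protein locally, whereas mRNAs of secreted and membrane proteins are translated at the endoplasmic reticulum. Depolarization by KCl opens calcium channels and turns on immediate early genes in the nucleus.

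The soma libraries held 54397025 and 70313406 counts and the neurite libraries 47496542 and 55747797, from 50 ng of total RNA each. Over 23028 genes, log2 ratios of replicate 2 to replicate 1 spread with an SD of 0.348 in soma and 0.283 in neurites, and replicates differed by far more than counting error (chi-square of 74.6 per degree of freedom in soma and 16.9 in neurites). Levels are given as CPM (counts relative to the TMM-scaled library size), or as FPKM (CPM by total count, per kilobase of exon) where genes are compared with each other. Each sentence of values gives replicate 1 first. A gene was called with an adjusted p of at most 0.05 in edgeR's quasi-likelihood test (two-sided, Benjamini-Hochberg adjustment over all genes tested) and a change of at least 1.5-fold. "Higher" and "lower" below mean neurites against soma. Reads that fit several places were counted at each of them and without strand, so levels of pseudogenes, close paralogs and antisense genes are uncertain.

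After KCl, 1419 genes were higher in neurites (6.16% of 23028) and 388 were lower (1.68%). The change was at least 2-fold for 747 of the higher and 159 of the lower genes, and at least 4-fold for 38 and 31. In every called gene, the values of the 2 neurite libraries did not overlap those of the 2 soma libraries. Of all 23028 genes, 6587 lay above soma without overlap and 6197 below, so this alone says little. The median change of all genes tested was -0.01 on the log2 scale. Without neurite replicate 1 the counts were 893 higher and 239 lower, and 804 of the 1419 higher but only 118 of the 388 lower genes were called again. Without neurite replicate 2, 1051 and 168 of them were. The lower count also moved without soma replicate 1 (846) and without soma replicate 2 (725), and with soma and neurites of an insert paired it was 851 (2062 higher). Fitted with all 16 RNA-seq libraries, whose common biological coefficient of variation was 0.373 against 0.167 in these 4, edgeR called 0 genes in either direction, with 698 at least 1.5-fold higher and 417 lower at an unadjusted p, while a DESeq2 fit of the 4 gave 1604 higher and 552 lower genes (6.97% and 2.4%). At an unadjusted edgeR p of at most 0.05, 2435 genes of the 4 libraries (10.6%) were at least 1.5-fold higher and 1262 (5.48%) lower. Leaving out 1 library leaves 1 in a fraction, and it moved the calls over all genes in both directions. Counts over gene lists without 1 library, given below, moved with all genes and are by themselves no trait of a list.

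**Figure D1:**
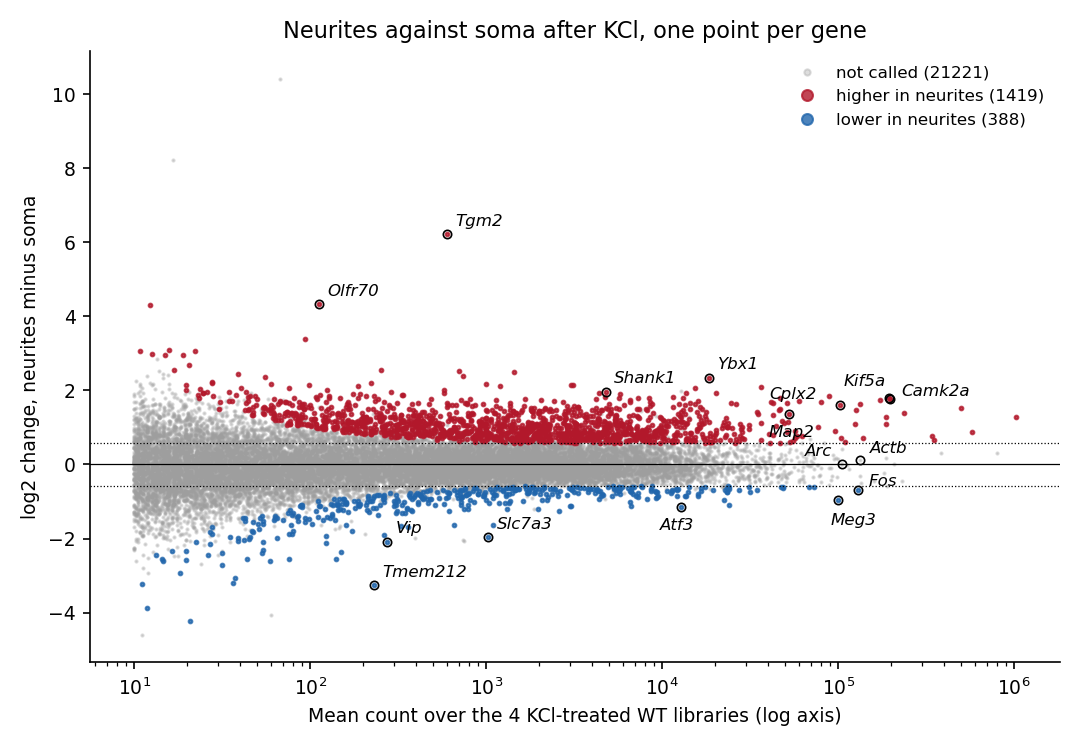
Change of each of 23028 genes (log2, neurites minus soma, vertical axis) against its mean count in the 4 KCl-treated WT libraries (log horizontal axis). Red points are the 1419 genes called higher in neurites and blue points the 388 called lower, dotted lines mark 1.5-fold, and circles mark genes named in the text, with Camk2a and Kif5a far to the right and Tgm2 the highest of the circles.

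mRNAs known to reside in dendrites were mostly higher in neurites after KCl. Of 24 such mRNAs, 15 were called higher and 0 lower (1 at an unadjusted p, by DESeq2 and with paired inserts), with a median log2 change of 1.05. The other 9 included Arc, Actb and Bdnf, and the lowest of them was Grin1 (-0.67). Camk2a (ENSMUSG00000024617), which encodes the alpha subunit of calcium/calmodulin-dependent kinase II, stood at 1685 and 1668 CPM in soma and 6301 and 5292 CPM in neurites. Its neurite libraries lay far above both soma libraries, with a log2 change of 1.79 (SE 0.13, edgeR adjusted p = 0.000783). Map2 (ENSMUSG00000015222, GRCm38 chromosome 1 from 66175273 to 66442583), the dendritic microtubule-associated protein, stood at 522 and 584 CPM in soma and 1473 and 1374 CPM in neurites, a log2 change of 1.36 (SE 0.14, edgeR adjusted p = 0.00142). Shank1 (ENSMUSG00000038738, GRCm38 chromosome 7 from 44310253 to 44360572), a scaffold of the postsynaptic density, was measured at 28.7 and 46 CPM in soma and 160.2 and 132 CPM in neurites. The soma libraries of Shank1 differed from each other by more than the neurite libraries did, and the change was 1.97 (SE 0.23, adjusted p = 0.00163) in edgeR. Per exon length, Camk2a was at 241 and 240.0 FPKM in soma and 784 and 663 FPKM in neurites, Map2 at 33.9 and 38.1 FPKM in soma and 83.2 and 78.1 FPKM in neurites, and Shank1 at 2.91 and 4.7 FPKM in soma and 14.2 and 11.7 FPKM in neurites.

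Most genes for scaffolds and signalling proteins of the postsynaptic density were also higher in neurites. Of 34 members 20 were higher and 0 lower, with a median of 0.81. Shank1 belongs to this list and to the dendritic mRNAs, so the counts of both lists are not separate results. Ddn (dendrin; ENSMUSG00000059213, GRCm38 chromosome 15 from 98803777 to 98809490) stood at 35 and 35.2 CPM in soma and 148 and 118 CPM in neurites, and Ppp1r9b (spinophilin, which binds actin and protein phosphatase 1; ENSMUSG00000038976, GRCm38 chromosome 11 from 94991035 to 95006899) at 105 and 119 CPM in soma and 413 and 365 CPM in neurites. Both were higher in each neurite library than in either soma library, with log2 changes of 1.92 (SE 0.16, edgeR adjusted p = 0.000783) and 1.79 (SE 0.15, edgeR adjusted p = 0.000783). Homer2, which links metabotropic glutamate receptors to the scaffold, changed by 1.62 and Dlg4 (PSD-95) by 1.27, from 73.7 and 112 CPM in soma and 245 and 203 CPM in neurites. Psd and Dlgap3, which bind to these scaffolds, had large changes, 1.65 and 1.68, on uneven soma replicates: Psd stood at 66.3 and 195 CPM in soma and 483 and 336 CPM in neurites. Homer1 (-0.29) and Baiap2 (-0.47) did not pass the test. Without neurite replicate 1, 13 of the 34 scaffolds were called higher. The soma replicates themselves differed in these lists: soma replicate 2 exceeded replicate 1 by a median of 0.47 (log2) over the dendritic mRNAs and 0.27 over the scaffolds, against -0.02 over all genes. Their medians were 0.86 and 0.70 without soma replicate 1, and 1.22 and 0.86 without soma replicate 2.

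**Figure D2:**
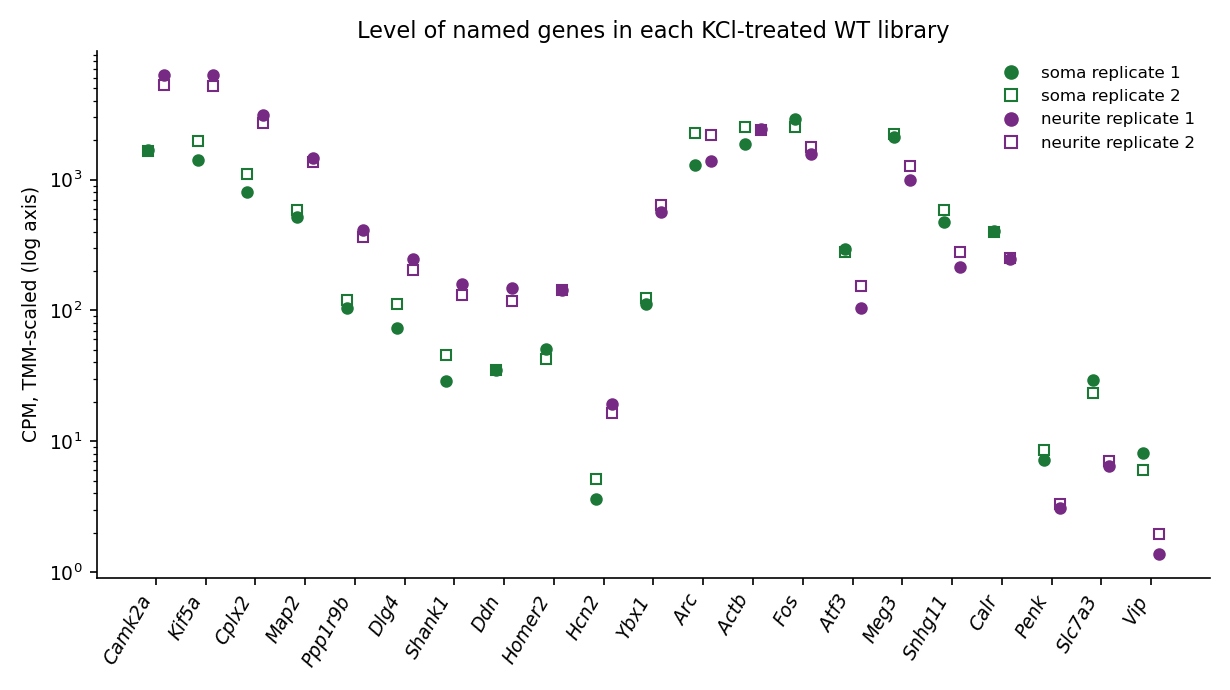
CPM (TMM-scaled, log axis) of 21 named genes in each of the 4 KCl-treated WT libraries. Green symbols are soma and purple symbols neurites, with circles for replicate 1 and open squares for replicate 2. From Camk2a to Ybx1 both neurite libraries lie above both soma libraries, Arc and Actb overlap, and from Fos to Vip the neurite libraries lie below.

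Several of these mRNAs carry sites of the deposited m6A list. DART-seq marks m6A by deaminating a cytidine next to the methylated adenosine, and the sites lie at the C of RAC (R is A or G). The sites below are those with the highest edited share (C2U) in the mRNA, shown as 21 bases of the GRCm38 genome in the sense of the RNA, with RAC in capitals. They let a reader see the sequence around the mark in RNAs that were high in neurites, and the last of them, Sv2b, in an RNA that was low there.
Map2: cccccaaaGACctcttgatca
Ddn: cagatttaAACggacaaaggg
Ppp1r9b: cctcctggAACtgccctgagg
Shank1: tccccacaGACaaactggatg
Kif5a: tccccccaAACaccactcagg
Sv2b: taactgatAACgctctgttga
The Map2 site (chr1:66440353-66440373, plus strand) lies in the longest annotated 3′UTR, and its edited share was 12.8% as the authors' mean over WT libraries. Map2 held 16 sites. Those of Ddn (chr15:98804607-98804627, minus strand; 9.98%, 4 sites in all) and Ppp1r9b (chr11:95006106-95006126, plus strand; 3.37%, 6 sites) also lie in the longest 3′UTR. The sites of Shank1 (chr7:44344890-44344910, plus strand; 8.86%, 7 sites) and Kif5a (chr10:127248231-127248251, minus strand; 3.5%, 7 sites) lie outside it. Sv2b, whose site (chr7:75115664-75115684, minus strand) is in the longest 3′UTR, had the highest share of the 6, 20.1%, with 7 sites. The deposited shares pool soma and neurites and both treatments, so they say nothing of methylation in 1 compartment.

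Of the motors and tracks of transport, a few genes were higher, with large changes. Among kinesins, dynein and their adaptors, 4 of 23 were higher and 0 lower (median 0.37): Kif5a, Kif5b and Kif5c, which are the heavy chains of kinesin-1, and Kif1a, a motor of synaptic vesicle precursors. Kif5a (ENSMUSG00000074657, GRCm38 chromosome 10 from 127225696 to 127263348) stood at 1421 and 1969 CPM in soma and 6339.8 and 5218 CPM in neurites, and changed by 1.77 (SE 0.18, edgeR adjusted p = 0.00142). Kif5c stood at 1865 and 2183 CPM in soma and 4990.2 and 4948 CPM in neurites, a change of 1.30, and Kif5b and Kif1a changed by 1.34 and 1.10. Every gene of the kinesin-1 heavy chain family was thus called, whereas the dynein heavy chain Dync1h1 (0.10) and the kinesin light chain Klc1 (0.39) were not. Without soma replicate 2, 11 of the 23 were called higher. Of 26 tubulins and microtubule-associated proteins, only Map2, Map1a (1.35) and Map1b (0.65) were higher and 0 were lower, with a median of 0.08, and the call of Map1b was lost with paired inserts. The tubulins Tuba1a and Tubb3 changed by 0.00 and 0.08. Among actins and their regulators 1 of 25 was called: Wasf1, a subunit of the WAVE complex that activates Arp2/3, at 58.6 and 92.5 CPM in soma and 145 and 147 CPM in neurites, a change of 0.95 (SE 0.21, adjusted p = 0.0234) in edgeR. Actb, the cytoplasmic beta-actin, stood at 1862 and 2514 CPM in soma and 2422 and 2374 CPM in neurites, and the fractions overlapped (0.13, SE 0.16). Without soma replicate 1, 4 of the 25 actin genes were called higher, and 2 without soma replicate 2. Of 5 neurofilament genes, Nefm was called lower (-0.72), a call that was lost without either neurite replicate and without soma replicate 2, and 29.3% of its 50-base windows occur in another gene.

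Presynaptic genes went both ways. Of 33 genes of synaptic vesicles and the SNARE machinery, 6 were higher and 2 lower, with a median of 0.22. Cplx2 (complexin 2, which binds the SNARE complex; ENSMUSG00000025867, GRCm38 chromosome 13 from 54371349 to 54383917) stood at 798 and 1109 CPM in soma and 3123 and 2705 CPM in neurites, a change of 1.61 (SE 0.17, edgeR adjusted p = 0.00142). Rims1 and Bsn, scaffolds of the active zone where vesicles fuse, changed by 1.32 and 0.88, and the call of Bsn was lost without neurite replicate 1. Syn2 (0.75) and Syt7 (0.59) were also called. Syp, which encodes the vesicle membrane protein synaptophysin, stood at 229 and 167 CPM in soma and 123 and 113 CPM in neurites, and Sv2b, a vesicle glycoprotein, at 171 and 183 CPM in soma and 107 and 119 CPM in neurites. Both were lower in each neurite library than in either soma library, by -0.75 and -0.65 on the log2 scale. The 2 lower calls were lost without either neurite replicate, and the count of higher genes was 2 without neurite replicate 1, 3 without neurite replicate 2 and 10 without soma replicate 2. Without soma replicate 1, 4 genes were lower but not Syp.

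Few genes for receptors and channels were called. Of all genes tested, 6.16% were higher and 1.68% lower, so lists of this size hold few calls in any case. Of 24 glutamate receptor genes and 13 GABA-A receptor genes, 0 were called in either direction by edgeR, with medians of -0.14 and -0.21. At an unadjusted p, 1 glutamate receptor gene was at least 1.5-fold higher and 3 were lower, and 1 GABA-A receptor gene was lower, where 10.6% of all genes were higher and 5.48% lower. DESeq2 on the same libraries called 1 glutamate receptor gene higher and 3 lower, and 1 GABA-A receptor gene lower, and edgeR with paired inserts gave the same counts. Without soma replicate 1 they were 1 higher and 3 lower for glutamate receptors and 1 lower for GABA-A receptors, without soma replicate 2 they were 2, 1 and 1, and without neurite replicate 2 there was 1 glutamate receptor gene higher. The AMPA receptor subunit Gria2 stood at 618 and 569.7 CPM in soma and 534 and 541 CPM in neurites, and Gria1 at 901 and 1026 CPM in soma and 796 and 826 CPM in neurites, with changes of -0.14 and -0.25. Of 35 voltage-gated channels, 1 was higher and 1 lower (median -0.12). Hcn2 (ENSMUSG00000020331, GRCm38 chromosome 10 from 79716634 to 79736108), a hyperpolarization-activated cation channel, stood at 3.6 and 5.12 CPM in soma and 19.1 and 16.5 CPM in neurites, a change of 2.02 (SE 0.22, edgeR adjusted p = 0.00142). Kcnc2, a potassium channel of fast-spiking neurons, was lower by -0.69 (log2), a call that was lost without either neurite replicate. Of the channels 4 were higher without soma replicate 2, 2 without neurite replicate 2 and 2 with paired inserts, and 2 were lower without either soma replicate.

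Proteins of RNA granules and of translation differed gene by gene. Ybx1 (ENSMUSG00000028639, GRCm38 chromosome 4 from 119277981 to 119294604), a cold-shock protein that binds mRNA, had the smallest p of all named genes: it stood at 113 and 124 CPM in soma and 562 and 641 CPM in neurites, and changed by 2.35 (SE 0.15, edgeR adjusted p = 0.000783), although 25.1% of its 50-base windows occur in another gene. Elavl3 (0.82) and Pum2 (0.68), which bind 3′UTRs, were also higher, and Cpeb1, which controls cytoplasmic polyadenylation, was lower (-0.68). In all, 3 of 27 granule proteins were higher and 1 lower (median 0.05), and Fmr1 (0.13) and Stau2 (0.36) were not called. The calls of Cpeb1 and Pum2 were lost without either neurite replicate, and that of Elavl3 without soma replicate 1 (0.51) and when genes averaging under 100 counts were left out. Of 38 translation factors 5 were higher and 0 lower (median 0.05), namely Pabpc4, Pabpc1, Eif3b, Eif3f and Eef2. Pabpc1, the poly(A)-binding protein, stood at 497 and 564 CPM in soma and 1156 and 1034 CPM in neurites and Pabpc4 at 25.4 and 28.5 CPM in soma and 67.9 and 64.9 CPM in neurites, with log2 changes of 1.05 and 1.30, and 69.8% of the windows of Pabpc4 occur in another gene.

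Many mRNAs of ribosomal proteins were higher in neurites. Of 84 cytosolic ribosomal protein genes, 32 were higher and 0 lower, 80 of 84 had a positive change, and the median was 0.53. Their summed level was 14033 and 11009.8 CPM in soma and 21338 and 20125 CPM in neurites, so both neurite libraries lay above both soma libraries. Rps2 stood at 509 and 419.5 CPM in soma and 1370.3 and 1209 CPM in neurites, a change of 1.47 (SE 0.15, adjusted p = 0.00142) in edgeR, with 71.3% of its windows also found in another gene. Rpsa changed by 1.32. Soma replicate 2 minus soma replicate 1 had a median of -0.36 (log2) over this list. The count of higher genes was 19 without neurite replicate 1 and 56 without soma replicate 1. Mitochondrial ribosomal proteins, which are made in the cytosol and imported, had 6 of 77 members higher and 0 lower (median 0.02). These counts were near the shares over all genes (6.16% higher and 1.68% lower), and they changed when 1 library was left out. Of 92 nuclear-encoded genes of the respiratory chain, 25 were higher and 0 lower (median 0.31). Cox8a, a subunit of cytochrome c oxidase, stood at 624 and 539.7 CPM in soma and 1298 and 1216 CPM in neurites, and changed by 1.11 (SE 0.14, adjusted p = 0.00245) in edgeR, and Uqcr11 and Ndufaf8 changed by 1.10 and 1.08. The respiratory chain count was 8 without neurite replicate 1, 13 without neurite replicate 2 and 16 without soma replicate 2. Of 16 glycolysis enzymes 1 was higher, also near the share over all genes, and the median was -0.10. That gene was Aldoc (0.72), whose call was lost without neurite replicate 2. Of 31 proteasome subunits, 0 were called in either direction by edgeR, by DESeq2 and at an unadjusted edgeR p with 1.5-fold, and 1 of the 31 had a positive change (median -0.28). Without soma replicate 2, 4 were lower.

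Pseudogenes made up 373 of the 1419 higher genes (26.3%) but 9 of the 388 lower genes (2.32%), against 3563 of the 23028 genes tested. The higher set also held 969 protein-coding genes (68.3%) and 60 long noncoding RNAs, and the lower set 322 protein-coding genes and 28 long noncoding RNAs. Read by class, 10.5% of tested pseudogenes, 6.17% of protein-coding genes and 2.49% of long noncoding RNAs were higher. Because reads were counted at every place they fit, each pseudogene was searched for 50-base windows that also occur in a protein-coding transcript. In 96 of the 373 higher pseudogenes at least 50% of the windows occur in 1 protein-coding gene. That gene was tested for 90 of them and called higher for 74 (82.2%), and it was a ribosomal protein gene for 62. Among pseudogenes called in neither direction, 679 of 3181 shared as much, and the shared gene was higher for 11 of 669 (1.64%). Rps2 was the shared gene of 10 higher pseudogenes, Rpl21 of 6 and Rpl23a of 5. Of 226 tested ribosomal protein pseudogenes 75 were higher and 0 lower (median 0.68), and 116 were higher without soma replicate 1. For these 96, reads of the pseudogene and of the shared gene cannot be told apart in this table. Not every one followed the shared gene: 5 pseudogenes that share windows with Uimc1 had a median of 0.80, and Uimc1 itself was at -0.53 and not called. The other higher pseudogenes shared fewer windows with any 1 protein-coding gene.

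The 5 genes of highest FPKM were the same in both fractions, and 4 of them are unprocessed pseudogenes on chromosome 1 of GRCm38. Gm10925, Gm28437, Gm28661 and Gm29216 share 97.1% to 100% of their windows with mitochondrial transcripts (mt-Atp6, mt-Co3, mt-Co2 and mt-Co1), while all 37 mitochondrially encoded genes themselves held 0 counts in the table. Gm10925 (ENSMUSG00000100862, GRCm38 chromosome 1 from 24613974 to 24614651) stood at 17356 and 17658 FPKM in soma and 38149 and 36207 FPKM in neurites, and Gm29216 at 13497 and 7929.7 FPKM in soma and 30768 and 23046 FPKM in neurites. All 4 were higher in neurites, by 0.77 to 1.53 on the log2 scale. The fifth gene, Ubb (polyubiquitin B), stood at 8615 and 7614 FPKM in soma and 8052 and 9512 FPKM in neurites and was not called (0.31).

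The largest rises outside pseudogenes and clone names were mixed in function. Olfr70 (ENSMUSG00000050215, GRCm38 chromosome 4 from 43694784 to 43700807), of the olfactory receptor family, had 11 and 18 counts in soma and 224 and 196 counts in neurites, and at these low counts its change was 4.34 (SE 0.32, edgeR adjusted p = 0.000783). Nrtn, which encodes the growth factor neurturin, stood at 0.929 and 1.95 CPM in soma and 11.2 and 6.04 CPM in neurites, a change of 2.57 (SE 0.38, adjusted p = 0.00494) in edgeR. BC024139 (2.50), Bag1 (2.14) and Sowaha (2.15) were higher at larger counts. Bag1 (ENSMUSG00000028416, GRCm38 chromosome 4 from 40936398 to 40948294), a co-chaperone of Hsp70, stood at 21 and 22.4 CPM in soma and 91.2 and 101 CPM in neurites, with close replicates in both fractions. Tgm2, which encodes transglutaminase 2, stood at 0.189 and 0.397 CPM in soma and 0.521 and 44.9 CPM in neurites: its change of 6.22 (SE 1.52, adjusted p = 0.0363) in edgeR rested on neurite replicate 2 and was 0.81 without it.

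Some mRNAs of secreted peptides and of the endoplasmic reticulum were lower in neurites. Of 24 genes for prohormones, secreted factors and their processing enzymes, 5 were lower and 0 higher (median -0.38). Vip (ENSMUSG00000019772, GRCm38 chromosome 10 from 5639218 to 5647617), which encodes vasoactive intestinal peptide, stood at 8.11 and 6.05 CPM in soma and 1.38 and 1.94 CPM in neurites, a change of -2.08 (SE 0.26, edgeR adjusted p = 0.00234). Penk (proenkephalin) stood at 7.18 and 8.63 CPM in soma and 3.06 and 3.3 CPM in neurites, and Tac1 (substance P precursor) and Sst (somatostatin) changed by -1.20 and -1.13. The convertase Pcsk2 was lower by -0.72 (log2), whereas Cpe, a carboxypeptidase of the same vesicles, stood at 0.57 and was not called. In this list 8 genes were lower without soma replicate 1 and 8 without soma replicate 2, where 4 were higher. Precursors or binding proteins of neuropeptides outside the list were among the 10 largest falls of called genes averaging 100 or more counts and without a clone name: Calca, the precursor of CGRP, at 4.18 and 3.35 CPM in soma and 0.499 and 0.768 CPM in neurites (-2.55), Tac2 (-1.68) and Crhbp, which binds CRH, at 16.4 and 15.5 CPM in soma and 5.44 and 4.85 CPM in neurites (-1.63). Calca, Tac2 and Crhbp were named because of their falls, so they add no result about the list. Tmem212, Fam216b, Cdhr3, Adamts15 and Ak7 were also among these falls. Slc7a3 (ENSMUSG00000031297, GRCm38 chromosome X from 101079210 to 101086020), a transporter of cationic amino acids, stood at 29.2 and 23.2 CPM in soma and 6.48 and 7 CPM in neurites, and changed by -1.96 (SE 0.19, edgeR adjusted p = 0.00113). Of 20 chaperones and translocon subunits of the endoplasmic reticulum, 2 were lower and 0 higher (median -0.39), Calr (-0.69) and Hsp90b1 (-0.63). Calr stood at 405 and 400.5 CPM in soma and 249 and 251 CPM in neurites, so the replicates nearly coincided. Both calls were lost without either neurite replicate, and 5 genes, without Hsp90b1, were lower without soma replicate 1. Vip and Sst also mark inhibitory interneurons: of 13 interneuron markers 4 were lower (Vip, Sst, Dlx5 and Gad1) and 1 higher (Reln, 0.94), with a median of -0.48. The call of Dlx5 was lost without neurite replicate 1. In bulk RNA, fewer neurites of a cell type and less RNA per neurite cannot be told apart.

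Some long noncoding RNAs of the nucleus were lower in neurites, among them Snhg11, which the annotation used for the class counts above lists as protein-coding. The class as a whole was not lower more often than other genes: 1.16% of 2407 tested long noncoding RNAs were, against 1.68% of all genes tested. Snhg11 (ENSMUSG00000044349, GRCm38 chromosome 2 from 158375638 to 158386145), a host of small nucleolar RNAs, stood at 471 and 582 CPM in soma and 216 and 280.3 CPM in neurites, a change of -1.08 (SE 0.17, edgeR adjusted p = 0.00706). Meg3 stood at 2109 and 2234 CPM in soma and 990.0 and 1262 CPM in neurites, and changed by -0.95 (SE 0.15, edgeR adjusted p = 0.00632). Neither was absent from neurites: Meg3 reached 125 and 133 FPKM in soma and 50.8 and 65.2 FPKM in neurites. Malat1, the abundant RNA of nuclear speckles, stood at 3357 and 3419.9 CPM in soma and 2828 and 2919.7 CPM in neurites, and its change of -0.24 (adjusted p = 0.253 in edgeR) did not pass. Of 21 long noncoding RNAs 3 were lower and 1 higher, with a median of -0.24, and 4 were higher and 8 lower without soma replicate 1. With paired inserts 2 were higher and 5 lower, without neurite replicate 1 none was higher, and without soma replicate 2 the median of this list was 0.04. Bc1, a small RNA of dendrites, overlapped between the fractions at 17.5 and 43.4 CPM in soma and 16.3 and 22.1 CPM in neurites, and 31.1% of its windows occur in other genes. mRNAs of neuronal transcription factors did not follow the nuclear RNAs: 7 of 23 were higher and 0 lower (median 0.53), led by Tbr1, Nfix and Nfia. Tbr1, a factor of glutamatergic neurons, stood at 7.99 and 8.12 CPM in soma and 25.7 and 23.4 CPM in neurites, and Nfix at 259 and 258 CPM in soma and 574 and 564 CPM in neurites, with changes of 1.61 and 1.14.

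**Figure D3:**
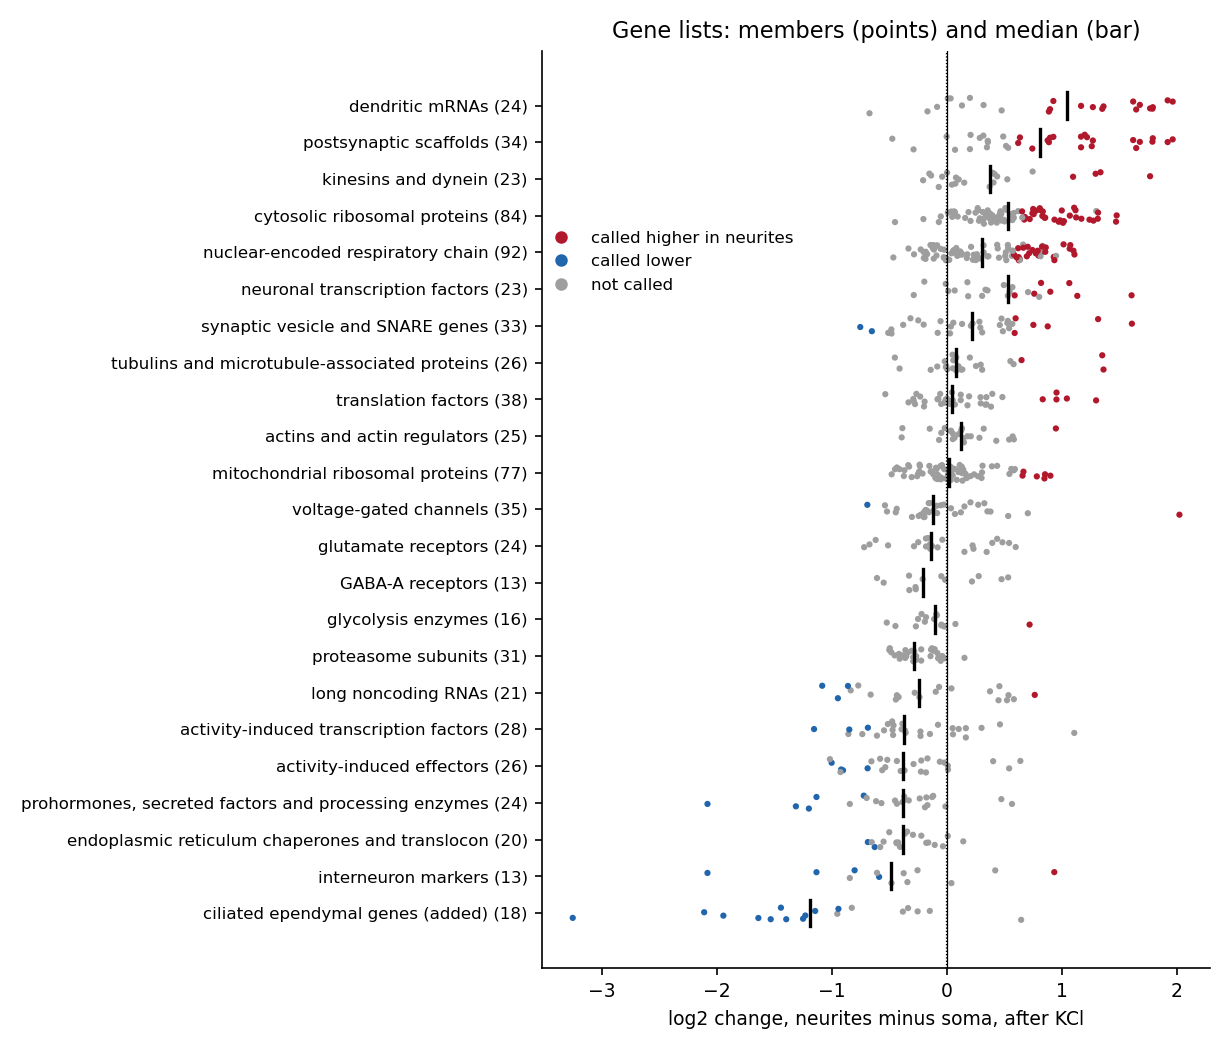
Change after KCl (log2, neurites minus soma) of each tested member of 23 gene lists, with the number tested in brackets. Red points were called higher, blue points lower and gray points in neither direction, the black bar is the median of a list, and the dotted line is the median of all genes (-0.01). Dendritic mRNAs (median 1.05) and postsynaptic scaffolds (0.81) lie to the right, and interneuron markers (-0.48) and ciliated ependymal genes (-1.19) to the left. The ciliated ependymal list was written after the values had been seen, so its place is no result. The macrophage list, written in the same way (median 1.38), is not plotted.

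Of the RNAs that depolarization induces, several were lower and none was called higher in neurites 2 h after KCl. Of 28 activity-induced transcription factors 0 were higher and 3 lower in edgeR (median -0.37), and of 26 activity-induced effectors 0 were higher and 4 lower (median -0.38). DESeq2 called 0 higher in both lists, with 4 and 7 lower, and 1 gene of each list was at least 1.5-fold higher at an unadjusted edgeR p. Fos (ENSMUSG00000021250, GRCm38 chromosome 12 from 85473890 to 85477273), the founding immediate early gene, stood at 2906 and 2504 CPM in soma and 1581 and 1779.6 CPM in neurites, a change of -0.69 (SE 0.14, edgeR adjusted p = 0.0169). Its soma libraries both lay above its neurite libraries, and the call was lost without neurite replicate 1 and without soma replicate 1. Atf3 (ENSMUSG00000026628, GRCm38 chromosome 1 from 191170296 to 191218039), a stress- and activity-induced factor of the ATF/CREB family, stood at 296 and 278 CPM in soma and 105 and 153 CPM in neurites, a change of -1.16 (SE 0.19, edgeR adjusted p = 0.0075). Klf4 (-0.85) was the third factor called, and its call was lost without neurite replicate 1. Gadd45b, Rgs2, Rasl11b and Ccn1 were the effectors called. Arc, whose mRNA moves into dendrites and whose protein promotes endocytosis of AMPA receptors, stood at 1290.0 and 2276 CPM in soma and 1394 and 2195 CPM in neurites. The replicates of Arc differed more than the fractions did (change 0.01, SE 0.27). Npas4 stood at 785 and 1502 CPM in soma and 726 and 919 CPM in neurites and changed by -0.48 (SE 0.26), and Bdnf, a neurotrophin, and Homer1 changed by -0.17 and -0.29, with none of the 3 called. Without soma replicate 1, more members of both lists were lower, and so were more of all genes tested. Without soma replicate 2, 8 effectors were lower, and without neurite replicate 1 none was. Also without soma replicate 2, 2 genes of each list were higher, and 1 transcription factor was without either neurite replicate. With paired inserts 1 gene of each list was higher and 7 effectors were lower.

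Enrichment in neurites was also measured in WT neurons that had received no KCl. The 4 untreated WT libraries, fitted in the same way, gave 2458 higher and 745 lower genes (10.6% and 3.21% of 23200), and 1194 of the 1419 higher genes after KCl were higher there too, with 222 in neither direction. Of the 388 lower genes, 157 were also lower in untreated neurons, 218 were in neither direction, and 1, Ccn1, was higher. The dendritic mRNAs had untreated and KCl medians of 0.98 and 1.05, and the scaffolds of 0.66 and 0.81. Ribosomal proteins had 63 members higher in untreated neurons and 32 after KCl, with medians of 0.85 and 0.53. Activity-induced transcription factors had a median of 0.15 untreated, with 4 higher and 0 lower, and of -0.37 after KCl. Markers of other cells had larger untreated medians too: 1.26 for fibroblast and vascular markers (9 higher) against 0.43 after KCl, 0.61 for astrocyte markers (5 higher) against -0.13, and 1.27 for microglia markers (3 higher) against 0.69. Their part in the differences between untreated and KCl-treated neurons was not tested. The difference itself was tested as an interaction over the 8 WT libraries with a term per insert. By edgeR, 0 of 23200 genes were called in either direction (0.0% higher and 0.0% lower), with a smallest adjusted p of 0.203, and 465 and 314 genes were at least 1.5-fold higher and lower after KCl at an unadjusted p of at most 0.05. DESeq2 with the same terms called 3 genes higher and 12 lower.

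Among those 12 were Egr2, Ccn1, Atf3, Trib1 and Fos. Egr2 changed by 1.34 in untreated neurons and by -0.47 after KCl, and the interaction was -1.75 (SE 0.19, edgeR adjusted p = 0.203). For Atf3 the change went from 0.43 to -1.16, for Fos from 0.55 to -0.69, and for Ccn1 from 1.17 to -0.69. The edgeR adjusted p of these 3 interactions lay between 0.939 and 0.999, so they did not pass that test. Levels without KCl were low: Fos stood at 13.0 and 12.5 CPM in untreated soma and 18.8 and 16.3 CPM in untreated neurites (scaled over 8 libraries), far under its levels after KCl in both fractions. Atf3 stood at 2.56 and 2.50 CPM in untreated soma and 3.10 and 3.35 CPM in untreated neurites. Tbr1, with Ypel3 and Hnrnpll, was called higher by DESeq2: its enrichment was 0.43 untreated and 1.61 after KCl. Tbr1 stood at 37.4 and 27.1 CPM in untreated soma and 44.1 and 38.1 CPM in untreated neurites. After KCl it stood at 7.99 and 8.12 CPM in soma and 25.7 and 23.4 CPM in neurites. Its level was thus lower after KCl in both fractions, and more so in soma. Wasf1 (0.06 untreated) and Hcn2 (1.07 untreated) also had larger changes after KCl, at unadjusted interaction p of 0.00239 and 0.0169, and edgeR adjusted p of 0.999 for each. Camk2a, Map2 and Shank1 had interactions of -0.29, -0.37 and -0.07 (SE 0.19, 0.21 and 0.32), none of which passed.

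**Figure D4:**
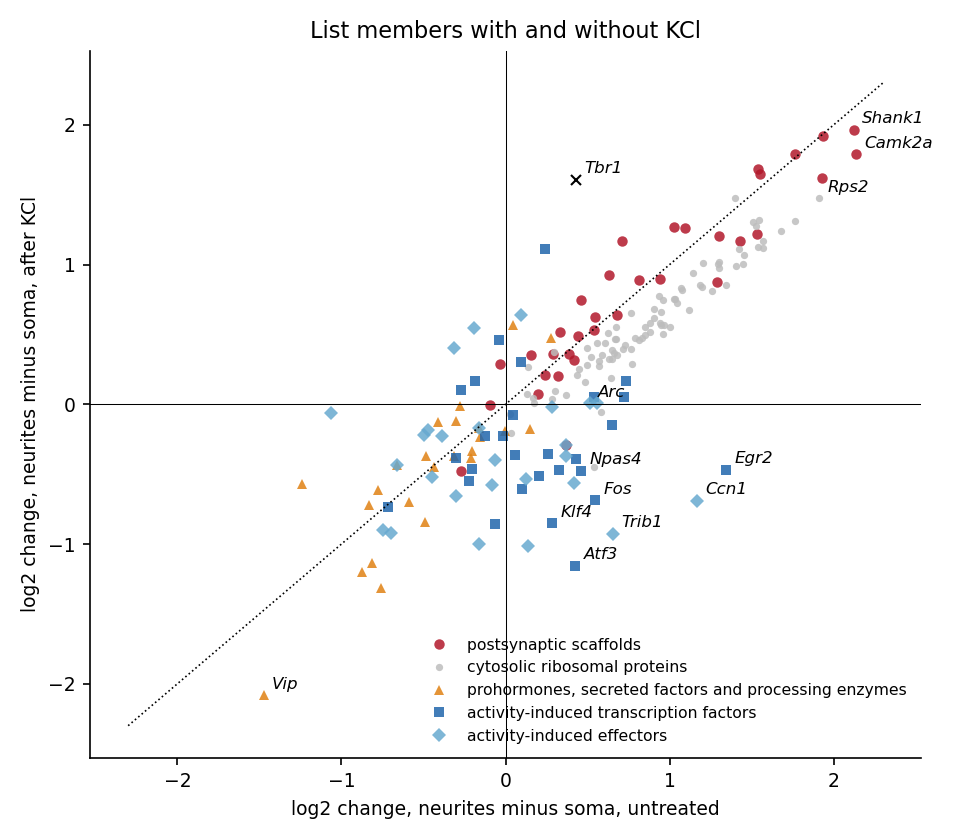
Change between neurites and soma (log2) without KCl (horizontal axis) and after KCl (vertical axis) for the members of 5 gene lists and for Tbr1 (cross). Each point is a gene and the dotted diagonal marks equal change. Postsynaptic scaffolds lie around the diagonal, most ribosomal proteins under it, and Fos, Atf3, Egr2 and Ccn1 to the right of 0 without KCl and under 0 after KCl.

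Markers of other cells were present in both fractions, and some were higher in neurites. Of 12 astrocyte markers 4 were higher and 0 lower (median -0.13, but 0.06 without neurite replicate 1 and 0.19 without soma replicate 2), with a summed level of 1520.0 and 1545 CPM in soma and 2238 and 2642 CPM in neurites. Gfap, the intermediate filament of astrocytes, stood at 619.6 and 569 CPM in soma and 1229 and 1425 CPM in neurites, and changed by 1.16 (SE 0.14, adjusted p = 0.00206) in edgeR, whereas Gja1 (-0.36) and Aqp4 (-0.22) were not called. Without neurite replicate 2, 1 of the 12 was called. Oligodendrocyte lineage markers (2 of 10 higher, Mbp and Olig1; 88.2 and 90.1 CPM in soma, 117 and 109 in neurites) and fibroblast and vascular markers (2 of 12 higher, Rgs5 and Col1a2; 70.4 and 73.0 CPM in soma, 169 and 136 in neurites) held low sums. Microglia markers summed to 18.9 and 16.5 CPM in soma and to 35.3 and 22.8 CPM in neurites, with C1qa and C1qb higher and P2ry12 and Itgam under a mean count of 10. Without neurite replicate 1, 1 oligodendrocyte and 1 fibroblast marker were higher, and without neurite replicate 2, 5 fibroblast markers were. The part of these cells in the changes above was not tested. Of 10 neuron markers 1 was higher, Rbfox3 (0.81), and 1 lower, Gad1 (-0.59), with a median of 0.07. The call of Gad1 was lost with paired inserts and without either neurite replicate and soma replicate 2, that of Rbfox3 without neurite replicate 1, and 3 were higher without soma replicate 2. Of 14 genes of the cell cycle 1 was higher, Cenpf (0.99), near the share of 6.16% over all genes, and the median was -0.18.

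Lists of ciliary and macrophage genes were written after the values had been seen, because their genes were among the largest changes. Of 18 genes of motile cilia, which ependymal cells carry, 11 were lower and 0 higher (median -1.19), led by Tmem212 at 7.55 and 5.41 CPM in soma and 0.181 and 1.13 CPM in neurites. Their summed level was 173 and 175 CPM in soma and 116 and 123 CPM in neurites. Of 13 macrophage genes, 6 were higher and 0 lower (median 1.38), among them Tgm2, which rested on neurite replicate 2, Spp1 at 10.2 and 4.33 CPM in soma and 43.9 and 21.8 CPM in neurites and Marco at 1.6 and 1.18 CPM in soma and 7.02 and 4.93 CPM in neurites. The summed level of the macrophage list overlapped, at 423 and 430.0 CPM in soma and 419 and 397 CPM in neurites.

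Features of the transcripts that the comparison did not use are described by shares of genes, with no test. Among protein-coding genes averaging 1000 or more counts, 14.8% of 1705 genes with 4 or more m6A sites were higher, against 7.52% of 2980 genes with 1 to 3 sites and 7.36% of 2351 genes with 0 sites. For lower genes these shares were 1.82%, 2.21% and 2.59%. In genes with a mean count from 100 to 1000 the shares of higher genes were 14.3%, 7.63% and 4.53%. The study called sites only at positions above a minimum of reads, so genes with few reads could hold few sites. The depth of each site is not given. Genes with 4 or more sites and a mean count of at least 1000 had a longer 3′UTR (median 1502 bases) than those with 1 to 3 (1156 bases), and genes with 0 sites the longest (1650.5 bases). The median G and C content of the longest 3′UTR was 47.5% with 4 or more sites, 45.0% with 1 to 3 and 42.6% with 0 sites. Sites and G and C content were thus not separate features, and their parts were not tested. Shares by site were not computed without single libraries. The share of higher genes also differed by G and C content. In genes averaging 100 or more counts, 13.6% of 3147 genes with at least 50% G and C were higher, against 5.91% of 5436 genes between 40% and 50%, and 4.40% of 3590 genes under 40%. Their median log2 changes were 0.11, -0.02 and -0.07. Shank1 (56.7% G and C), Ppp1r9b (57.8%) and Ddn (52.6%) belonged to the first class, whereas Map2 (36.1%) and Ybx1 (31.4%) belonged to the last. The soma replicates also differed along G and C content: replicate 2 minus replicate 1 had medians of 0.10, -0.07 and -0.14 (log2) in the same 3 classes. Without soma replicate 1 the median changes were 0.07, 0.01 and 0.00, and without soma replicate 2 they were 0.20, -0.04 and -0.13, so the gap between the classes was smaller without soma replicate 1 than without soma replicate 2. The shares of higher genes without soma replicate 1 were 14.8%, 8.08% and 6.91%, in the same order. They were 24.6%, 9.05% and 6.02% without soma replicate 2.

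**Figure D5:**
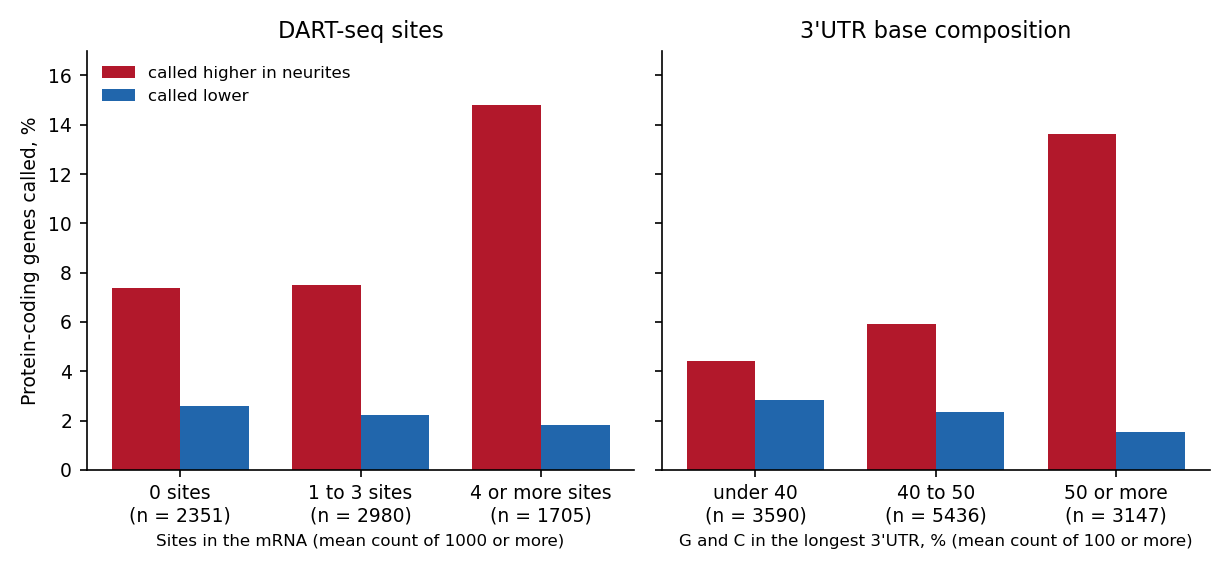
Percent of protein-coding genes called higher (red) and lower (blue) in neurites, by number of m6A sites in genes averaging 1000 or more counts (left) and by G and C content of the longest 3′UTR in genes averaging at or above 100 (right). Bars start at 0 and n is the number of genes; the tallest bars are genes with 4 or more sites (14.8%) and with at least 50% G and C (13.6%).

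The length of the 3′UTR differed little between the sets, with medians of 1487 bases in higher genes, 1374 in lower genes and 1382 in the rest at a mean count of at least 1000. Elements were searched on the sense strand of the longest 3′UTR only. The AU-rich pentamer ATTTA, which holds no G or C, occurred 1.23 times per kilobase on average in higher genes, 2.12 times in lower genes and 1.86 times in the rest. The Pumilio element TGTANATA was found in 24.8% of higher, 39.2% of lower and 30.5% of other 3′UTRs in that class. Single genes varied within each set: of the higher genes Shank1 and Ppp1r9b hold 0 copies of ATTTA and Dlg4 and Kif5b 14 and 12, and of the lower genes Fos and Atf3 hold 4 and 3 and Slc7a3 and Penk 0. The m6A motif GGACT occurred in 69.2% of higher, 65.8% of lower and 67.6% of other 3′UTRs. A match is only a stretch of these letters.

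Counted by level, 7171 genes exceeded 5 FPKM in both neurite libraries and 7378 in both soma libraries, with 6766 in all 4. Of the 7171 genes, 1005 were called higher and 124 lower. Only in neurites, 405 genes exceeded that level in both libraries, and only in soma, 612 did. With TMM-scaled library sizes in place of total counts, the numbers were 7454 in neurites and 7107 in soma, so which fraction held more such genes depended on the scaling.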

How the data were processed

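RNA-seq of soma and neurites of KCl-treated WT neurons was analysed from the deposited table of fragment counts per gene, with the 4 untreated WT libraries for comparison. Per the labels and the file headers, the authors aligned reads with STAR 2.7.7a and counted fragments with featureCounts 2.0.1 over 55573 genes of Ensembl on GRCm38, counting reads that map to several places at each of them and ignoring strand, and these counts are not normalized. The deposited m6A site list gives a C2U fraction per site, which the authors averaged over WT DART-seq libraries of both fractions and treatments. They called sites only above a minimum of reads, and the list does not give the depth of each site. Tables of the authors' own comparisons (fold changes and p-values, and editing per RNA) were not used.

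Counts were analysed with edgeR 4.0.16 in R 4.3.3. The 37 mitochondrially encoded genes and genes with a mean count under 10 over the 4 libraries were left out. TMM scaling and the quasi-likelihood test (two-sided, Benjamini-Hochberg over all genes) were used, with an adjusted p of at most 0.05 and at least 1.5-fold for a call. FPKM was computed from the counts, the exon length in the table and the total count. The interaction with KCl was fitted over 8 WT libraries with a term per insert. The procedure was tested on simulated counts with 4-fold changes, the same spread for every gene and no differences between inserts. That setting is simpler than these data, so it says nothing of calls near 1.5-fold. Coordinates, biotypes, 3′UTRs and sequences came from GRCm38 with GENCODE annotation. Total counts of 47496542 to 70313406 set the precision, and because the reads carried no molecular identifiers, PCR copies were counted as separate fragments and counting error understates the spread. Each replicate came from another litter, pooled over its pups, and p-values rest on 2 such replicates per fraction.

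The study's methods pair the soma and neurite counts of one insert for changes in enrichment, and its replicates are distinct litters, so replicate numbers were taken to pair the samples. The differences between replicates correlated only weakly between soma and neurites (r = 0.0627 across genes, which are not independent replicates). For the enrichment itself the methods name no pairing, so it was fitted without the block, and with it as an alternative. DESeq2 1.42.0, RLE scaling, other count filters, fits with 8 and 16 libraries and leaving out each library were the other alternatives.

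Named genes were the 10 largest changes in each direction among called genes averaging 100 or more counts, without overlap and no clone name, the 5 smallest p in each direction, up to 3 called genes per list and direction (or the 2 of highest count), 18 genes always named, and the 5 of highest FPKM. Of the genes always named, Norad was not analysed here. Further list members, low-count genes and genes of the interaction were named after their values had been seen. The libraries and gene lists were chosen with earlier results of these data known. Some list members are not reported here. Lists are described by counts and medians, without a test of their own.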

Additional observations from a re-analysis of the deposited data

How the results depend on the processing

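The number of genes higher in neurites lay between 1244 and 2062 under DESeq2, RLE scaling, a mean count of at least 100, no filter, 8 WT libraries and paired inserts, against 1419 as reported. The number lower was 629 with 8 WT libraries, 868 with no filter and 851 with the replicate block, against 388, and the fit with 16 libraries called 0 higher and 0 lower. Leaving out 1 library gave 893 to 2059 higher and 239 to 846 lower genes. The cause of these shifts was not tested. With the replicate block, which pairs soma and neurites of an insert, 1410 of the 1419 higher and 382 of the 388 lower genes were called again among 2062 and 851. Without neurite replicate 1, 804 and 118 were called again, and without neurite replicate 2, 1051 and 168. Among 109 named genes the block changed the calls of 2, Gad1 and Map1b, and the fit with 16 libraries lost 93. The median of the long noncoding RNAs went from -0.24 to between -0.25 and 0.036 without 1 library, with the positive value without soma replicate 2. The interaction with KCl gave 0 calls in either direction without an insert term (no replicate block), with RLE scaling and with a mean count of at least 100, but 3 higher and 12 lower with DESeq2. With 2 replicates per fraction, small changes and genes of few counts were not resolved, and a miss of the threshold does not show equal levels.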

Other observations

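Genes outside the lists were also among those whose enrichment in neurites differed between KCl and no KCl in DESeq2, although none passed in edgeR, and they are named after their values were seen. Gem, a small GTPase that inhibits calcium channels, had an interaction of -2.17 (log2, SE 0.51, DESeq2 adjusted p = 0.0285). Its edgeR change went from 1.52 without KCl to -0.64 after KCl. The untreated value rested on low levels, 0.348 and 0.480 CPM in soma and 1.32 and 0.907 CPM in neurites. Mlip had -1.88 (SE 0.34, DESeq2 adjusted p = 0.000104). Ghsr, the ghrelin receptor, had -1.39 (SE 0.29, DESeq2 adjusted p = 0.00522), and its edgeR change was negative in both states (-0.23 without KCl and -1.63 after KCl). Sox9, a transcription factor of astrocytes, had -1.15 (SE 0.28, DESeq2 adjusted p = 0.0497), and Nop53, a protein of ribosome assembly, -1.11 (SE 0.27, DESeq2 adjusted p = 0.0392). In the other direction, Ypel3 had 1.23 (SE 0.28, DESeq2 adjusted p = 0.0246) and the RNA-binding protein Hnrnpll 1.13 (SE 0.27, DESeq2 adjusted p = 0.0343). Both had less RNA in soma after KCl. Ypel3 went from 82.7 and 54.8 CPM in untreated soma to 18.2 and 30.6 CPM, and Hnrnpll from 48.8 and 38.5 CPM to 15.2 and 22.5 CPM. In neurites, Ypel3 went from 85.9 and 69.5 CPM untreated to 65.4 and 70.0 CPM, and Hnrnpll from 42.7 and 37.3 CPM to 37.9 and 41.3 CPM.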
